A study of Oryctolagus cuniculus with 6 samples.

Results

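The genes described here are inhibitors of the cell cycle and targets of the p53 pathway, in rabbit limbal stem cells (LSCs). Of the 9 genes chosen by name, 7 had a row in the deposited tables, namely CDKN1A, CDKN1B, CDKN2B, GADD45A, BTG2, SESN1 and SESN2. MDM2, the ubiquitin ligase that marks p53 for destruction, and CDKN1C, which encodes the inhibitor p57, were not analysed here. The tables held 22190 genes, of which 15029 had enough reads to be tested, and all 7 of these genes were among them. Their NCBI gene identifiers in the tables were 100348489 for CDKN1A, 100009037 for CDKN1B, 100351874 for CDKN2B, 100353284 for GADD45A, 100354553 for BTG2, 100344328 for SESN1 and 100353543 for SESN2.

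Primary LSCs grown out of limbal explants were profiled by RNA-seq, with 3 libraries from fresh tissue (fresh group) and 3 from preconditioned tissue (preconditioned group). For the preconditioned group, corneas were frozen in a cryomedium with dimethyl sulfoxide and 10 ng/mL IL-1β, kept in liquid nitrogen for 7 days and thawed before culture. Freezing and IL-1β were always applied together, so their shares in any difference cannot be told apart. No source used here gives the strain, age or number of rabbits behind a library, so the p values measure only the spread between these libraries, which may be technical.

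p53 is a transcription factor that is stabilised when DNA is damaged or cells are stressed. It switches on genes that stop division, repair DNA or lead to apoptosis. Among its best known targets is CDKN1A, whose product p21 binds and inhibits complexes of cyclins with cyclin-dependent kinases, and so holds cells before DNA replication. CDKN1B encodes p27, a relative of p21 in the CIP/KIP family. CDKN2B encodes p15, an INK4 inhibitor of CDK4 and CDK6 that is known as a target of TGF-β signalling. GADD45A and BTG2 are induced by DNA damage and restrain growth, and the sestrins SESN1 and SESN2 restrain mTORC1 signalling under stress and lack of amino acids. In the limbus, the rim of the cornea, stem cells that divide rarely renew the corneal epithelium.

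Each library held between 31952352 and 34327534 counts. Below, expression is given as CPM, the count of a gene relative to the TMM-scaled size of its library. The first principal component of log2 CPM carried 50.4% of the variance and separated the groups. On that axis preconditioned replicate 1 lay at 8.13, between the fresh libraries at −53.1 to −41.1 and preconditioned replicates 2 and 3 at 58.3 and 70.4. The label of the cells was checked against marker genes. KRT5, the keratin of basal epithelial cells, averaged 9601 ± 1156 CPM over the fresh libraries and 9320 ± 2234 CPM over the preconditioned ones (SD, n = 3 each), whereas KRT14, KRT12 and ALDH3A1 were not analysed here. TP63, whose product marks limbal stem cells, averaged 237 ± 10.1 and 139 ± 38.9 CPM, without overlap, at an adjusted p of 0.059 in edgeR, and the log2 fold changes of KRT3, a keratin of differentiated corneal cells, and PAX6 were −1.21 and 0.81 with overlapping groups. The 7 epithelial markers with a row summed to 9758 to 13488 CPM in the fresh libraries and to 9167 to 13502 CPM in the preconditioned ones. The 10 markers of stromal fibroblasts summed to 529 to 1144 CPM against 1299 to 2323 CPM. COL1A1 carried this separation, since the other 9 summed to 472 to 1036 CPM against 779 to 1630.2 CPM, with overlap, and 4 of the 10 had a log2 fold change below 0. The 5 markers of conjunctival and goblet cells summed to 2657 to 4693 CPM against 1911 to 4665 CPM. The 6 markers of leukocytes summed to 102 to 135 CPM against 126 to 318 CPM, most of it from CD68. All 5 tested leukocyte markers had a log2 fold change above 0, against 50.5% of all tested genes, with a median of 1.14. None of them was called in edgeR, and DESeq2 called 1 higher, against 7.78% of its tested genes. The 7 markers of melanocytes summed to 4.75 to 5.96 CPM against 2.77 to 6.39 CPM, and the 6 of vascular and corneal endothelium to 8.38 to 12.1 CPM against 5.63 to 15.9 CPM. The part of these marker levels in the results below was not tested. In bulk RNA, fewer cells of a type and less RNA per cell cannot be told apart.

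Of the 7 genes, CDKN1A alone was called, and it was higher in the preconditioned group. A gene was called at an adjusted p of at most 0.05 in edgeR's quasi-likelihood test (Benjamini-Hochberg over all tested genes) combined with a log2 fold change of 1 or more in either direction. By this rule 2.29% of all tested genes were called, 1.08% as higher and 1.2% as lower. At an adjusted p of at most 0.05 with no fold threshold, CDKN1A was again the only 1 of the 7, against 5.08% of all tested genes (2.88% higher and 2.2% lower). GADD45A was higher by a smaller fold and missed the adjusted threshold, SESN1 was high in 2 of the 3 preconditioned libraries, and the groups overlapped for the other 4 genes. The median log2 fold change of the 7 genes was 0.0052, beside 0.0071 for all tested genes. Fresh and preconditioned libraries were fully separated for CDKN1A and GADD45A, 2 of the 7 genes and both higher, against 36.7% of all tested genes separated in either direction and 17.9% of all tested genes separated as higher.

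**Figure D1:**
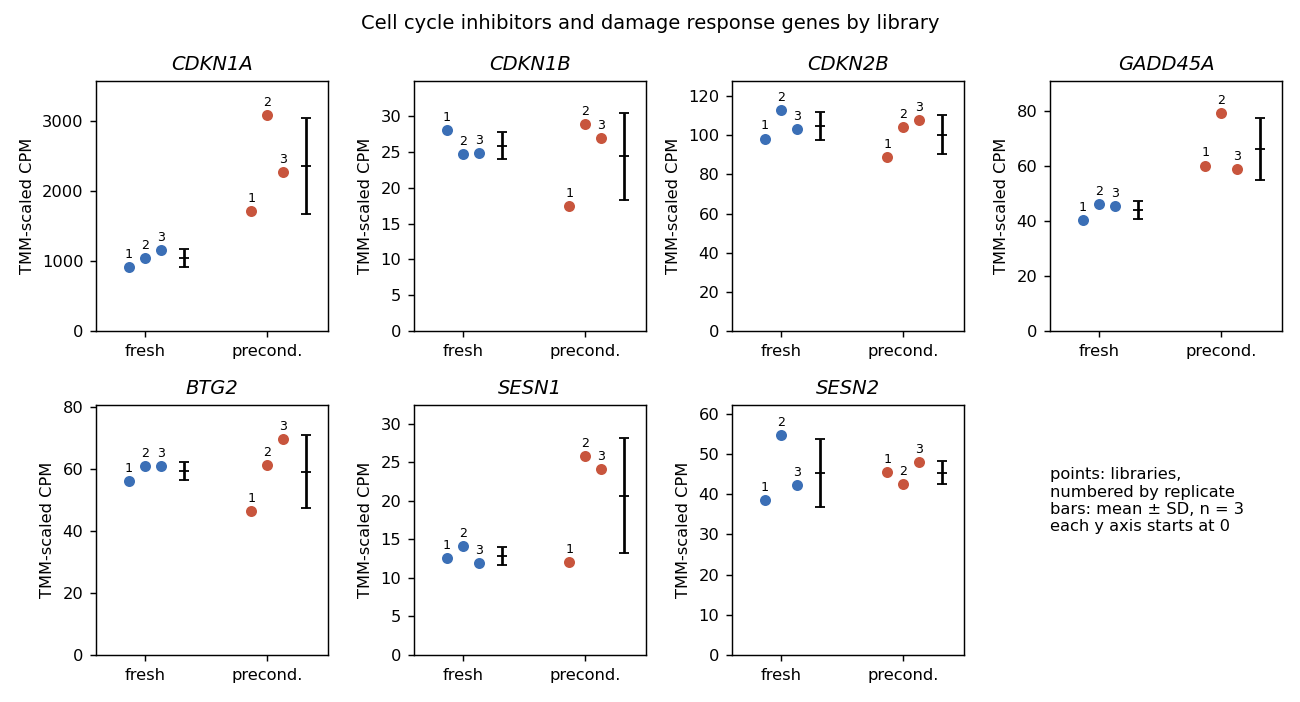
TMM-scaled CPM (vertical axes, each from 0) of the 7 genes in the 3 fresh and 3 preconditioned libraries, with 1 point per library carrying its replicate number and bars for the group mean and SD. CDKN1A and GADD45A are the genes whose groups do not overlap, and for SESN1 preconditioned replicate 1 sits among the fresh libraries.

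CDKN1A, which encodes p21, stood at 916, 1048 and 1164 CPM in fresh replicates 1 to 3. In preconditioned replicates 1 to 3 it stood at 1720.4, 3078 and 2265 CPM. Every preconditioned library was above every fresh one, and preconditioned replicate 1 was the lowest of its group. The group means were 1043 ± 124 CPM and 2354 ± 683 CPM (SD, n = 3 each), a 2.26-fold difference. The log2 fold change was 1.18 (SE 0.22, 95% confidence interval 0.65 to 1.70) with an adjusted p of 0.039 in edgeR's quasi-likelihood test. The transcript took 0.0966%, 0.111% and 0.124% of all counts in the fresh libraries and 0.166%, 0.281% and 0.215% in the preconditioned ones. By counts it ranked 105, 86 and 60 among all genes in fresh replicates 1 to 3 and 42, 21 and 33 in preconditioned replicates 1 to 3.

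The direction of CDKN1A was the same in 14 of 14 other settings, but its call was not. With libraries scaled by their total counts alone, its log2 fold change was 0.998 (adjusted p = 0.037, edgeR), just short of the threshold, while the median of all genes moved to −0.16. Both limma fits on log2 FPKM gave 0.97, also short of it, and the fit with the replicate number as a block gave 1.14 with an adjusted p of 0.080. Leaving out any 1 of 5 libraries (fresh replicates 1, 2 and 3 and preconditioned replicates 2 and 3) gave log2 fold changes of 0.94 to 1.26 with adjusted p values of 0.090 to 0.15 in edgeR, so the call was lost. Without preconditioned replicate 1 it was 1.35 (adjusted p = 0.0058 in edgeR). Leaving out that library also raised the number of genes called among all tested genes from 344 to 1546.

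CDKN1B, which encodes p27, stood at 28.0, 24.7 and 24.9 CPM in the fresh libraries and at 17.4, 28.8 and 26.9 CPM in the preconditioned ones. Preconditioned replicate 1 was the lowest of all 6 libraries and replicate 2 the highest, so the groups overlapped. The log2 fold change was −0.085 (SE 0.20, 95% confidence interval −0.56 to 0.39, adjusted p = 0.80 in edgeR). A rise as large as that of CDKN1A lay outside this interval.

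CDKN2B, which encodes p15, stood at 98.3, 113 and 103 CPM in the fresh libraries and at 88.9, 104 and 108 CPM in the preconditioned ones. The ranges overlapped for most of their length. Its log2 fold change was −0.062 (SE 0.12, 95% confidence interval −0.34 to 0.21, adjusted p = 0.75 in edgeR), which was the narrowest interval of the 7 genes. The tables also held a gene described as cyclin-dependent kinase inhibitor 2A, LOC100340625, which lay outside the rule for naming genes and was singled out after its values were seen. CDKN2A, the gene of that name, encodes another INK4 inhibitor, p16. LOC100340625 stood at 12.1, 32.7 and 16.3 CPM in the fresh libraries and at 9.68, 6.71 and 6.22 CPM in the preconditioned ones. The groups did not overlap, the fresh libraries were spread widely, and the log2 fold change was −1.43 with an adjusted p of 0.069 in edgeR, which is not a call.

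GADD45A, which encodes a damage-induced protein that binds PCNA and p21, stood at 40.5, 46.4 and 45.5 CPM in the fresh libraries. In the preconditioned libraries it stood at 60.3, 79.4 and 59.1 CPM. The groups did not overlap, with replicate 2 the highest. The means were 44.1 ± 3.19 CPM and 66.3 ± 11.4 CPM (SD, n = 3 each). The log2 fold change of 0.59 (SE 0.15, 95% confidence interval 0.24 to 0.93) had an adjusted p of 0.059 in edgeR. Under the DESeq2 Wald test the adjusted p was 0.016, and without preconditioned replicate 1 it was 0.027 in edgeR. Without any 1 of the other libraries it was 0.098 to 0.17 in edgeR, and the fold stayed below the threshold in every setting.

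BTG2, an antiproliferative regulator of mRNA decay, stood at 55.9, 61.0 and 60.9 CPM in the fresh libraries and at 46.4, 61.3 and 69.5 CPM in the preconditioned ones. The preconditioned libraries lay on both sides of the fresh ones. Its log2 fold change was −0.0045 (SE 0.16, 95% confidence interval −0.38 to 0.37, adjusted p = 0.99 in edgeR), and its sign changed between settings.

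SESN1 stood at 12.5, 14.2 and 11.9 CPM in the fresh libraries and at 12.1, 25.8 and 24.1 CPM in the preconditioned ones. Preconditioned replicates 2 and 3 were above every fresh library, and replicate 1 was within the fresh range. The log2 fold change of 0.68 (SE 0.29, 95% confidence interval 0.01 to 1.36) had an adjusted p of 0.16 in edgeR. Without preconditioned replicate 1 it was 0.95 with an adjusted p of 0.0083, still short of the fold threshold. Without any 1 of the other libraries the adjusted p was 0.28 to 0.40 in edgeR.

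SESN2 stood at 38.6, 54.7 and 42.3 CPM in the fresh libraries and at 45.5, 42.5 and 48.1 CPM in the preconditioned ones. The preconditioned libraries all lay inside the fresh range. Its log2 fold change was 0.0052 (SE 0.15, 95% confidence interval −0.35 to 0.36, adjusted p = 0.98 in edgeR), with a sign that changed between settings. SESN2 was the exception among the 7 genes in its spread, since its coefficient of variation was 18.7% among fresh and 6.19% among preconditioned libraries, whereas the other 6 genes varied more in the preconditioned group. Preconditioned replicate 1 was the lowest of its group for 5 of the 7 genes. An exact 2-sided permutation test on each gene alone gave p = 0.1 for CDKN1A and for GADD45A, the smallest value that 3 against 3 libraries allow. In the same exact test SESN1 had p = 0.3, and the other 4 genes had p values from 0.7 to 1.

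**Figure D2:**
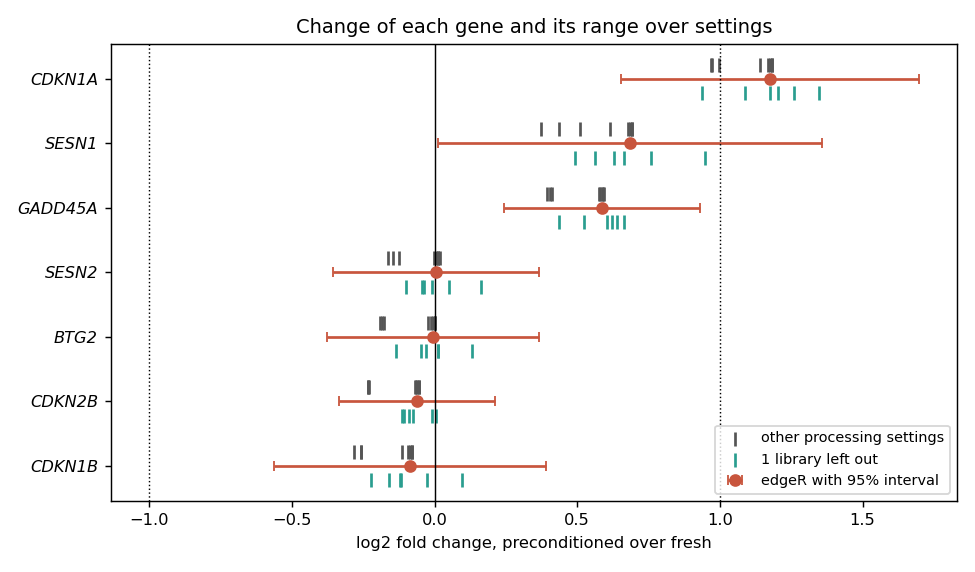
Log2 fold change of the preconditioned over the fresh group (horizontal axis) of the 7 genes in edgeR, with bars for the 95% confidence interval and a line at no change. CDKN1A at 1.18 and GADD45A at 0.59 lie clear of 0, the interval of SESN1 starts at 0.01, and the other 4 estimates lie between −0.085 and 0.0052.

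Whether related inhibitors changed by unequal amounts was asked within each library, where no scaling between libraries enters. The log2 ratio of CDKN1A counts to CDKN1B counts was 5.03, 5.41 and 5.55 in the fresh libraries and 6.62, 6.74 and 6.40 in the preconditioned ones. Every preconditioned library was above every fresh one, preconditioned replicate 1 included. The difference of the means was 1.26 (fresh 5.33 ± 0.27, preconditioned 6.59 ± 0.17, SD, n = 3 each), with an exact 2-sided permutation p of 0.1, the smallest possible, and 0.2 after adjustment over the 2 ratios computed. The log2 ratio of SESN2 counts to SESN1 counts was 1.62, 1.95 and 1.83 in the fresh libraries and 1.91, 0.72 and 0.997 in the preconditioned ones. Preconditioned replicate 1 again lay within the fresh range, and the exact 2-sided permutation p was 0.3, also after adjustment.

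Levels of different genes can be set side by side only per length, for which the deposited FPKM values were used. In the fresh group CDKN1A was the highest at 485.7 ± 60.02 FPKM (SD, n = 3), rank 159 of 22190 genes. It was followed by CDKN2B at 52.2 ± 3.76, GADD45A at 33.7 ± 2.56, BTG2 at 24.97 ± 1.33 and CDKN1B at 10.6 ± 0.714 FPKM. The sestrins were the lowest, SESN2 at 4.56 ± 0.855 and SESN1 at 3.96 ± 0.362 FPKM, and they were the only neighbours in this order whose libraries overlapped. CDKN1A held most of the summed FPKM of the 7 genes in both groups, 77.7% to 80.7% in the fresh libraries and 86.5% to 89.8% in the preconditioned ones.

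In the preconditioned group CDKN1A stood at 970 ± 254 FPKM (SD, n = 3), rank 85. GADD45A at 44.9 ± 6.42 and CDKN2B at 44.4 ± 3.94 FPKM overlapped, and BTG2 followed at 22.1 ± 4.23 FPKM. CDKN1B at 8.82 ± 2.03 FPKM overlapped SESN1 at 5.63 ± 1.95 FPKM, which in turn overlapped SESN2 at 4.07 ± 0.340 FPKM. The FPKM of CDKN1A was 37.3 to 53.4 times that of CDKN1B in the fresh libraries and 96.1 to 122 times in the preconditioned ones.

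**Figure D3:**
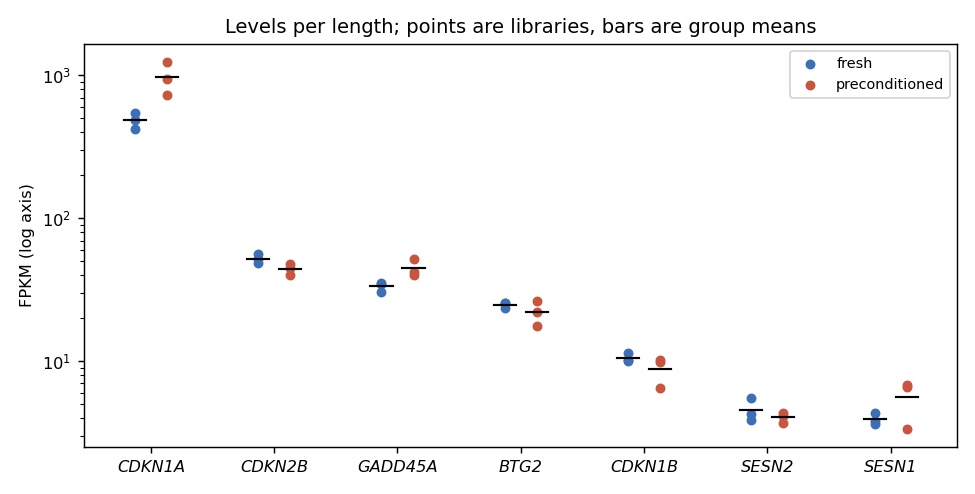
Deposited FPKM (log axis) of the 7 genes in the 3 fresh and 3 preconditioned libraries, 1 point per library, ordered by the fresh mean. CDKN1A lies apart from the rest in every library, and the sestrins lie lowest.

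Of 10 tested paralogs, 5 had a log2 fold change above 0 and 5 below. None was called in edgeR, 7 of the 10 had an unadjusted p under 0.05 (against 30.6% of all tested genes) and DESeq2 called 1, TOB1, against 7.78% of its tested genes. TOB1 and BTG3, of the antiproliferative BTG/TOB family of BTG2, had the largest absolute fold changes. TOB1 averaged 62.5 ± 4.19 CPM over the fresh libraries and 146 ± 54.4 CPM over the preconditioned ones (SD, n = 3 each). Its log2 fold change was 1.22 (SE 0.28) with an adjusted p of 0.053 in edgeR, and without preconditioned replicate 1 it was 1.49 with 0.0025. Leaving out any 1 other library gave TOB1 adjusted p values of 0.13 to 0.17 in edgeR. BTG3 stood at 46.4 ± 2.49 and 91.4 ± 26.1 CPM, with 0.98 (SE 0.21) and an adjusted p of 0.049. The groups did not overlap for either gene. MDM4, the partner of MDM2 in restraining p53, stood at 109 ± 8.20 and 70.0 ± 20.1 CPM, without overlap, with an adjusted p of 0.088.

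Of 25 other p53 target genes tested, 21 had a log2 fold change above 0, against 50.5% of all tested genes, and their median was 0.44. With libraries scaled by total counts alone the number was 20 and the median 0.27, beside 37.4% and −0.16 for all tested genes at that scale. For 11 of the 25 the preconditioned libraries were all above the fresh ones, and for none were they all below, against 17.9% and 18.8% of all tested genes. PLK2, a polo-like kinase, was the only one called, 1 of 25 against 2.29% of all tested genes. It stood at 91.0, 118 and 72.6 CPM in the fresh libraries and at 224, 152 and 203 CPM in the preconditioned ones, without overlap. Its log2 fold change was 1.04 (SE 0.22) with an adjusted p of 0.046 in edgeR, a call that was lost with total counts as the scale, in both limma fits (0.86 and 0.88) and when any 1 of the 6 libraries was left out. Without preconditioned replicate 1 its log2 fold change was 0.91, below the threshold, and without any other library its adjusted p was 0.10 to 0.13. PERP, a desmosomal protein of epithelia, TRIAP1 and RPS27L also rose, at adjusted p values of 0.039, 0.027 and 0.049 and with log2 fold changes of 0.68, 0.75 and 0.62. With PLK2, 4 of the 25 passed an adjusted p of 0.05 in edgeR as higher, against 2.88% of all tested genes. RRM2B, a ribonucleotide reductase subunit, stood at 102 ± 17.2 and 199 ± 57.4 CPM (SD, n = 3 each), 0.96 on the log2 scale with an adjusted p of 0.054. BAX, a mediator of apoptosis, stood at 57.4 ± 1.85 and 70.4 ± 4.49 CPM with an adjusted p of 0.10.

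Of 17 tested genes of the p53 family and its regulators, 14 had a log2 fold change below 0, against 49.5% of all tested genes, and the median was −0.34. None was called in edgeR or in DESeq2, 10 of the 17 had an unadjusted p under 0.05, against 30.6% of all tested genes, and 2 were called lower with total counts as the scale, against 2.81% of all tested genes there. HIPK2, a kinase of p53, and EP300 and CREBBP, acetyltransferases that act on p53 and on histones, fell at adjusted p values of 0.039, 0.048 and 0.049. These were the 3 of the 17 past an adjusted p of 0.05 in edgeR, all lower, against 2.2% of all tested genes. PPP1R13B, a cofactor of p53 in apoptosis, stood at 24.3 ± 1.497 and 13.5 ± 3.22 CPM (SD, n = 3 each), −0.85 on the log2 scale with an adjusted p of 0.055 in edgeR.

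Of 24 tested genes of DNA damage sensing and repair, 19 had a log2 fold change below 0, against 49.5% of all tested genes, with a median of −0.29. With total counts as the scale the number was 23 and the median −0.45, beside 62.6% and −0.16 for all tested genes there. In edgeR 2 of the 24 were called, both lower, against 1.2% of all tested genes. BRCA2, a mediator of homologous recombination, was called lower at 15.7 ± 0.717 and 6.13 ± 2.61 CPM (SD, n = 3 each), −1.35 on the log2 scale (SE 0.30) with an adjusted p of 0.0499 in edgeR. PARP1, a sensor of strand breaks, was called lower at 76.7 ± 7.58 and 35.7 ± 8.12 CPM, −1.10 (SE 0.18) with an adjusted p of 0.034. Both calls were lost without any 1 of fresh replicates 1, 2 and 3 and preconditioned replicates 2 and 3, with adjusted p values of 0.10 to 0.17 for BRCA2 and 0.077 to 0.13 for PARP1 in edgeR. BRCA2 also fell short of the fold threshold in limma with a pseudocount of 1, at −0.73. PRKDC, a kinase of end joining, fell by 0.70 on the log2 scale with an adjusted p of 0.038. With BRCA2 and PARP1, 3 of the 24 passed an adjusted p of 0.05 in edgeR as lower, against 2.2% of all tested genes.

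**Figure D4:**
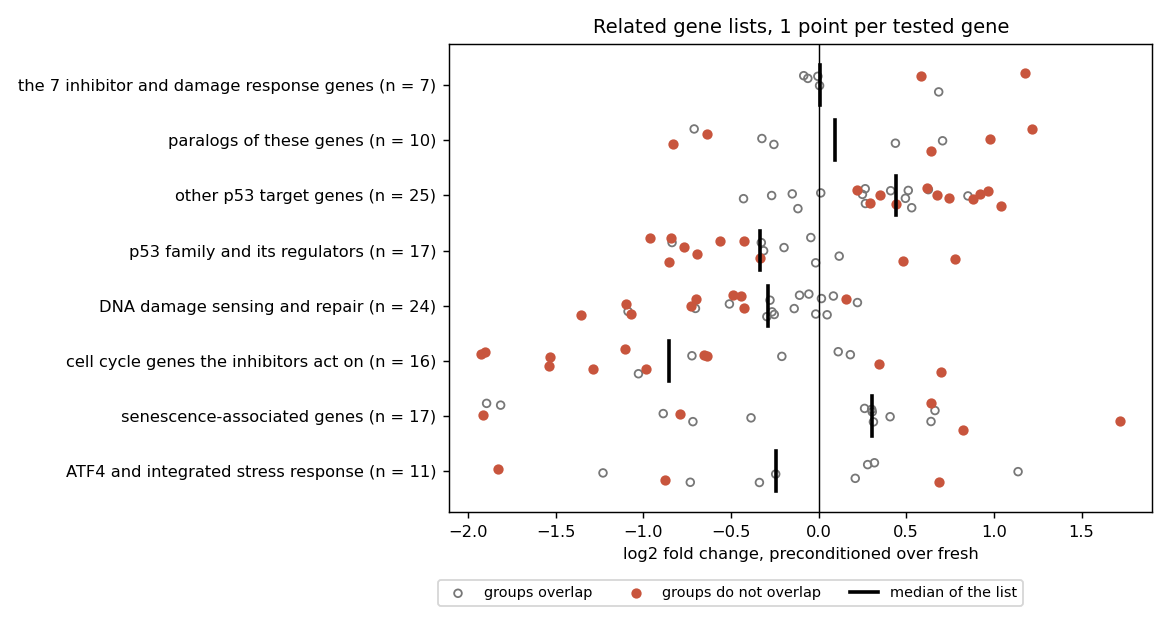
Log2 fold change (horizontal axis) of the 7 genes and of each tested gene of 7 related lists, 1 point per gene, filled where the 3 fresh and 3 preconditioned libraries do not overlap, with a bar at each list's median. The other p53 targets lie mostly above 0 with a median of 0.44, and the cell cycle genes mostly below with a median of −0.85.

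Of 16 tested cell cycle genes on which these inhibitors act, or that follow from them, 12 had a log2 fold change below 0, against 49.5% of all tested genes. For 9 every preconditioned library was below every fresh one, against 18.8% of all tested genes. CDK2, CCND1 and E2F1 of this list were not analysed here. CCNE1, the cyclin E whose kinase complex p21 and p27 inhibit, was the only one called in edgeR, 1 of 16 against 2.29% of all tested genes, while DESeq2 called 6 as lower, against 7.78% of its tested genes called in either direction. CCNE1 stood at 18.03, 14.3 and 19.7 CPM in the fresh libraries and at 8.40, 7.83 and 8.002 CPM in the preconditioned ones. The 3 preconditioned libraries lay close together and well below the fresh ones, with a log2 fold change of −1.10 (SE 0.18) and an adjusted p of 0.033 in edgeR. Without any 1 of the libraries other than preconditioned replicate 1 the adjusted p was 0.081 to 0.14. MKI67, the gene of the proliferation marker Ki67, stood at 51.2, 33.2 and 25.2 CPM in the fresh libraries and at 19.6, 5.21 and 4.51 CPM in the preconditioned ones. Its groups did not overlap but both were widely spread, and the log2 fold change of −1.90 (SE 0.61) had an adjusted p of 0.097. Without preconditioned replicate 1 it was −2.92 with an adjusted p of 0.0054 in edgeR, and the DESeq2 adjusted p with all 6 libraries was 0.0044. Without any 1 of the other libraries the edgeR adjusted p of MKI67 was 0.15 to 0.25. E2F2, a transcription factor of S phase entry, stood at 2.83 ± 0.291 and 0.739 ± 0.556 CPM (SD, n = 3 each), −1.93 on the log2 scale at an adjusted p of 0.073 in edgeR. Without preconditioned replicate 1 these were −2.74 and 0.0083, DESeq2 gave an adjusted p of 0.0053, and limma with a pseudocount of 1 gave −0.55. Leaving out any 1 other library gave E2F2 adjusted p values of 0.15 to 0.19 in edgeR. CCND2, a cyclin D, and CDK6, its kinase and a target of p15, stood higher in every preconditioned library at adjusted p values of 0.055 and 0.11.

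Of 17 tested senescence-associated genes, 10 had a log2 fold change above 0, against 50.5% of all tested genes, and the median was 0.30. None was called in edgeR and 6 of the 17 had an unadjusted p under 0.05, against 30.6% of all tested genes, while DESeq2 called 1 higher and 2 lower, against 7.78%. IGFBP7, a secreted IGF-binding protein, rose by 0.64 on the log2 scale with an adjusted p of 0.039. It was the 1 of the 17 past an adjusted p of 0.05 in edgeR, against 5.08% of all tested genes. GDF15, a secreted stress cytokine and p53 target, stood at 4.48 ± 2.75 and 14.8 ± 4.995 CPM (SD, n = 3 each), without overlap, 1.72 on the log2 scale with an adjusted p of 0.069 in edgeR. LMNB1, the lamin B1 whose loss is a mark of senescent cells, stood at 53.7 ± 6.68 and 14.2 ± 11.5 CPM (SD, n = 3 each), without overlap. Its log2 fold change was −1.92 (SE 0.52) with an adjusted p of 0.072 in edgeR, and −2.83 with 0.0012 without preconditioned replicate 1. Leaving out any 1 other library gave LMNB1 adjusted p values of 0.14 to 0.20 in edgeR. IL6, a secreted cytokine of senescent cells, varied over 33.6 ± 29.1 and 9.03 ± 7.23 CPM with overlapping groups and an adjusted p of 0.20 in edgeR. Its log2 fold change went from −1.89 to −0.96 without fresh replicate 3.

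Of 11 tested genes of ATF4 and the integrated stress response, which can induce SESN2 independently of p53, none was called in edgeR, 3 of the 11 had an unadjusted p under 0.05 against 30.6% of all tested genes, DESeq2 called 1 lower against 7.78%, and the median was −0.25. DDIT4, an inhibitor of mTORC1, fell by 0.88 on the log2 scale with an adjusted p of 0.039 in edgeR. It was the 1 of the 11 past an adjusted p of 0.05, against 5.08% of all tested genes. TRIB3, a pseudokinase target of ATF4, stood at 28.3 ± 2.06 and 7.93 ± 9.14 CPM (SD, n = 3 each), without overlap, with an adjusted p of 0.17. Its log2 fold change of −1.83 went to −3.41 without preconditioned replicate 1, with an adjusted p of 0.0039 in edgeR. Without any 1 of the other libraries the adjusted p was 0.25 to 0.38 in edgeR. ASNS, asparagine synthetase, stood at 68.4 ± 25.3 and 29.1 ± 13.4 CPM with an adjusted p of 0.096.

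**Figure D5:**
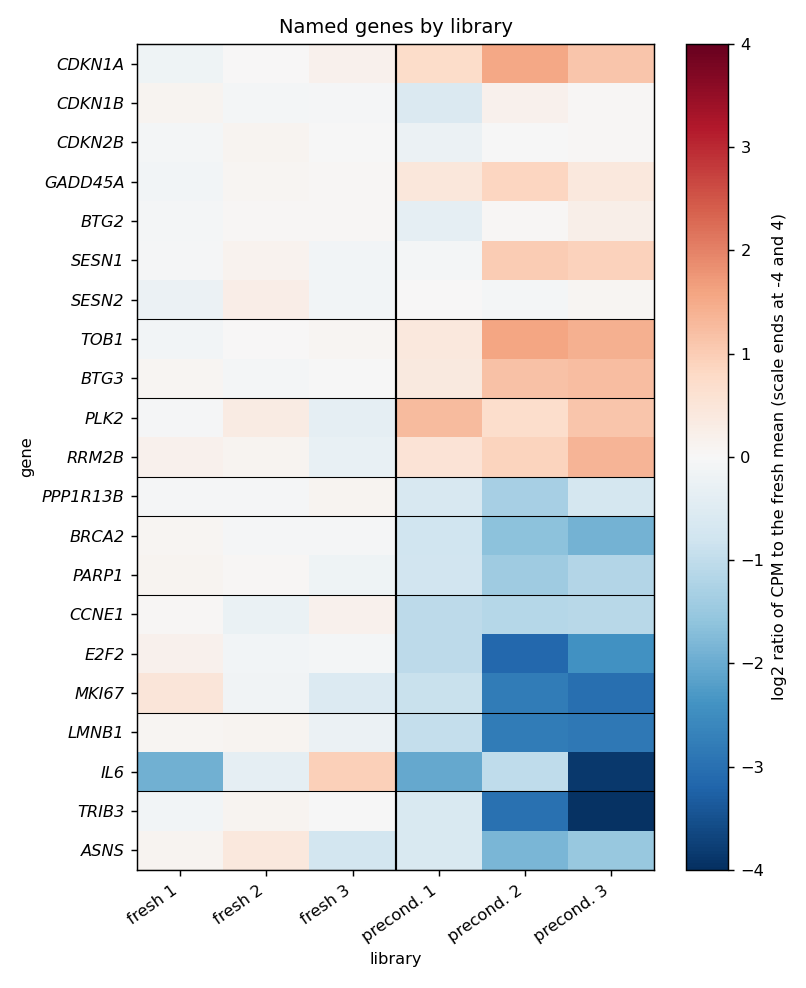
Colour gives the log2 ratio of CPM to the fresh mean for each named gene (rows) in the 3 fresh and 3 preconditioned libraries (columns), with a colour scale from −4 to 4. CDKN1A, TOB1 and BTG3 are above the fresh mean in every preconditioned library, and CCNE1, MKI67 and LMNB1 are below it, with preconditioned replicate 1 nearest to the fresh libraries for most genes.

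In the deposited annotation, the KEGG pathway "p53 signaling pathway" held 4 of the 7 genes (CDKN1A, GADD45A, SESN1 and SESN2), and the cell cycle and FoxO signaling pathways held 4 as well (CDKN1A, CDKN1B, CDKN2B and GADD45A). Of 70 tested genes of the p53 pathway, CDKN1A was called higher and CCNE1 lower, 2.86% in all and close to the 2.29% of all tested genes, while DESeq2 called 4 higher and 8 lower against 7.78% of its tested genes. The median log2 fold change of the 70 was 0.11, beside 0.0071 for all tested genes. With total counts as the scale it was −0.059, beside −0.16 for all tested genes.

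The gene with the profile most like that of each of the 7 was found by the root mean square difference of centred log2 CPM over the 6 libraries, among 11859 candidates. Each was chosen over these same libraries, so a fold change near that of its partner follows from the choice. For CDKN1A it was LGALS3, which encodes the lectin galectin-3, at a difference of 0.14. LGALS3 stood at 492, 486 and 606 CPM in the fresh libraries and at 858, 1288 and 1244 CPM in the preconditioned ones, and it was called higher (log2 fold change 1.10, adjusted p = 0.037 in edgeR), a call lost at adjusted p values of 0.080 to 0.14 without any 1 library other than preconditioned replicate 1. With total counts as the scale (0.92) and in both limma fits (0.91) it fell short of the fold threshold. For GADD45A it was the transcription factor KLF13 at 0.047, with a log2 fold change of 0.65 and an adjusted p of 0.049. The nearest profiles to the other genes were those of PLXNA3 for CDKN1B at 0.054, MSX2 for CDKN2B at 0.011, SCLY for BTG2 at 0.037, CCDC28B for SESN1 at 0.064 and ZFPM1 for SESN2 at 0.065. None of these 5 was called.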

How the data were processed

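RNA-seq was analysed in 6 libraries of rabbit LSCs, grouped by the titles of the sample records. The authors aligned reads with hisat2 (2.1.0) and deposited raw counts per gene from htseq-count (0.11.2). The genome build and the strand setting are not given in the sources used here, so no coordinates are printed. In the deposited FPKM table, each value was the gene's count over the library total and over 1 length per gene. The 7 gene identifiers were all found in NCBI's rabbit gene table (assembly mOryCun1.1).

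The counts were fitted with edgeR 4.0.16 (R 4.3.3): filterByExpr, TMM scaling, robust quasi-likelihood fit and test with condition as the only term, and Benjamini-Hochberg adjustment. CPM values use TMM-scaled library sizes. Tests of the ratios added 0.5 to each count. Depth was 31952352 to 34327534 counts per library, at which replicate spread, not counting error, set the precision. Alternatives were DESeq2 1.42.0, its size factors, total counts alone, 2 other filters, no fold threshold, the replicate number as a block, limma 3.58.1 on log2 FPKM with a pseudocount of 1 or 0.1, and leaving out each library.

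The genes and lists were chosen with earlier results of these data known. Named genes are the 9 chosen genes, each called gene and the 2 largest absolute log2 fold changes of each list, and the nearest profile to each gene; 1 of these is not reported here. Other list genes named, among them those past the adjusted p threshold, were added after their values were seen, as were the KEGG lists. For these genes no values with 1 library left out are given. Of 4 planned ratios, 2 needed MDM2 or CDKN1C and were not computed.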

Additional observations from a re-analysis of the deposited data

How the results depend on the processing

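edgeR called 344 genes, 163 higher and 181 lower. The number moved to 1190 with DESeq2, 763 without a fold threshold, 565 with total counts alone (142 higher and 423 lower), 521 with limma at a pseudocount of 0.1 (123 and 398; with a pseudocount of 1, 75 and 182), 30 with a replicate block, and 14 (without fresh replicate 2) to 1546 (without preconditioned replicate 1) when 1 library was left out. Of the 7 genes, 1 was called at first, and 0 with total counts alone, with the replicate block, with limma at either pseudocount and without any 1 of 5 libraries (range 0 to 1). For CDKN1A the replicate block gave 1.14 with an adjusted p of 0.080. The block also ended the calls of PLK2, BRCA2, PARP1, CCNE1 and LGALS3, at adjusted p values of 0.11, 0.089, 0.074, 0.088 and 0.078, and gave 0.11 for GADD45A. Correlations of same-numbered deviations from the group mean were −0.067, −0.073 and −0.11, and no library correlated best with its own number. With 3 libraries per group, these values cannot decide whether libraries of the same number share an animal or a batch. The labels do not say. The median of all genes moved to −0.16 with total counts alone and to −0.15 with limma at 0.1.

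Genes close to no change reversed in sign. BTG2 gave 0.0025 with DESeq2's size factors and 0.0028 with a minimum of 1 CPM. SESN2 gave −0.16 with total counts alone, −4.5e-05 without a filter, and −0.12 and −0.15 with limma at 1 and 0.1. ZFPM1 gave −0.14, −0.077 and −0.13 with total counts and the 2 limma fits. Leaving out 1 library gave ranges of −0.14 to 0.13 for BTG2, −0.098 to 0.16 for SESN2, −0.22 to 0.096 for CDKN1B, −0.11 to 0.0069 for CDKN2B, −0.073 to 0.14 for ZFPM1, −0.15 to 0.11 for SCLY, −0.27 to 0.11 for PLXNA3 and −0.11 to 0.0044 for MSX2. The cause was not tested. The 14 other list genes named by the rule kept their direction in all 196 refits. The CDKN1A to CDKN1B ratio ranged from 1.11 to 1.37 and the SESN2 to SESN1 ratio from −0.94 to −0.35 with 1 library left out.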

Other observations

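In the deposited annotation, the KEGG cellular senescence pathway held CDKN1A, CDKN2B and GADD45A among its 154 tested genes. Of these, 3 were called higher and 2 lower, 3.25% in all, beside 2.29% of all tested genes. DESeq2 called 5 higher and 16 lower, beside 7.78% of its tested genes. With CDKN1A, RRAS, a small GTPase, rose by a log2 fold change of 1.18 with an adjusted p of 0.032 in edgeR, and NFKB1, a subunit of NF-κB, fell by 1.07 on the log2 scale with an adjusted p of 0.0498. The other genes called were CCNE1, lower, and LOC100342972, described as an ADP/ATP translocase, higher. These genes were chosen after their values were seen.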
